A study of Mus musculus with 12 samples.

Results

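The genes described here are 43 genes of autophagy and of the lysosome, taken by symbol from a table of 55385 gene features measured by RNA-Seq in mouse liver. They cover the ULK and PI3K complexes, the proteins of the growing autophagic membrane, the conjugation enzymes, the ATG8 family, the cargo receptors, the transcription factors Tfeb and Tfe3, and 5 lysosomal proteins. All 43 were found, and all 43 were among the 16378 genes whose mean level reached 1 TPM and which were therefore tested. TPM is a level corrected for gene length and scaled to the same total in every library.

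The libraries came from male C57BL/6 mice, 7 weeks old, that were injected with adenovirus at a total of 500000000 plaque-forming units per group and whose livers were taken on day 7. The Ad-Ctrl group (n = 4 mice) received the Lac and pAdV5 viruses, the Ad-shmGULL group (n = 4) received a virus with a short hairpin RNA against the mouse lncRNA mGULL together with pAdV5, and the Ad-shmGULL+hGULL group (n = 4) received the hairpin virus together with a virus for the human lncRNA hGULL. They are called control, knockdown and rescue below. Every group, the controls included, thus carried adenovirus, and no uninfected liver was compared. The methods name the route as intravitreal for this experiment and as retro-orbital for the viruses in general. The levels of mGULL and hGULL were not analysed here, so the knockdown itself was not checked in these libraries. The study examined both lncRNAs together with CRTC2, a coactivator of the transcription factor CREB, and that axis is the reason for asking about autophagy genes. In another experiment the paper reports that overexpressed Crtc2 lowered lipophagy, the autophagy of lipid droplets, and that hGULL or mGULL reversed this. By qPCR it reports a like restoration there of the mRNA of Atg5, Atg7, Ulk1, Tfeb and Atgl (Pnpla2).

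Autophagy carries portions of the cytoplasm, including organelles and lipid droplets, to the lysosome for breakdown. The ULK kinase complex starts the process, the class III PI3K complex marks the new membrane with a phosphorylated lipid, and the WIPI and ATG2 proteins and Atg9a help it grow. Conjugation enzymes then attach ATG8 proteins such as LC3 to the membrane, where receptors such as Sqstm1 bring in cargo, and cathepsins digest it in the lysosome. In the liver this pathway is active in fasting, and TFEB and CREB are both known as transcriptional activators of its genes.

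The libraries hold hepatocyte-rich liver, with the 8 hepatocyte markers (Alb, Apoa1 and others) summing to between 70755 and 112836 TPM per mouse. The depth per mouse is unknown, because values are deposited as TPM. Replicate libraries correlated at r = 0.964 to 0.986 across tested genes, and the lowest values all involved knockdown mouse 1, where the 20 highest genes took 34.2% of all TPM against 24.6% to 32.9% in the other mice. That mouse was the lowest of the 4 knockdown mice for 19 of the 43 genes, and control mouse 2, with 32.9% in its 20 highest genes, was the lowest control for 19. Values without these libraries are given for some of the genes whose call or size changed. By group, the 20 highest genes took 29.4% to 32.9% of all TPM in control mice and 24.6% to 26.6% in rescue mice, without overlap. In knockdown mice they took 26.3% to 34.2%. The part of this difference in the levels of the other genes was not tested.

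As a set, the 43 genes were well expressed and varied little. Their median level, averaged over the 12 mice, was 31.3 TPM, against 10.3 TPM over all tested genes, and 41 of the 43 lay above that second value. The top 10% of tested genes, which began at 73.4 TPM, held 11 of the members. Lamp1, a heavily glycosylated protein of the lysosomal membrane, was the highest at 620 ± 51.3 TPM (SD, n = 4) in control liver, and Atg10, the enzyme that transfers Atg12 to Atg5, was the lowest at 4.38 ± 0.96 TPM (SD, n = 4). The median coefficient of variation between mice was 8.12% for the members in control liver against 15.3% for all tested genes, 11.8% against 18.9% in knockdown liver and 4.93% against 10.2% in rescue liver. The steadiest member was Optn in control liver (2.62%), Wipi2 in knockdown liver (1.47%) and Nbr1 in rescue liver (1.38%).

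**Figure D1:**
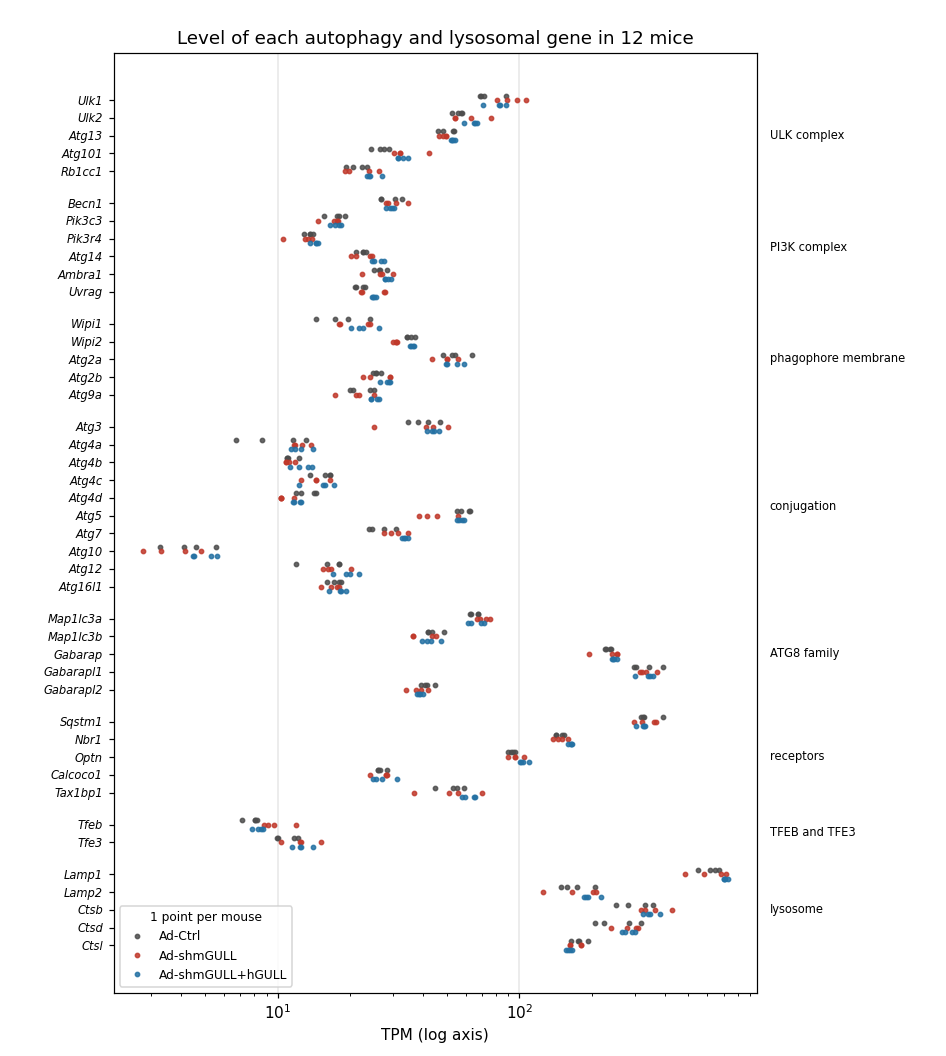
TPM on a log axis of each of the 43 genes, ordered by role, with 1 point per mouse in the control, knockdown and rescue groups (4 mice each). The levels of the genes run from a few TPM (Atg10) to the highest (Lamp1), while the 3 groups of any gene lie close together and mostly overlap.

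No member reached either threshold in any of the 3 comparisons. Between knockdown and control, 0 of 43 passed the study's fold threshold (more than 0.5 on the log2 scale in either direction, at an unadjusted P under 0.05), which 7.65% of all tested genes passed. At a Benjamini-Hochberg adjusted p under 0.05 in limma, 0 of 43 passed against 3.23% of all tested genes, and at an unadjusted P under 0.05 there were 3 members higher (Ulk1, Atg101 and Tfeb; background 15.4%) and 3 lower (Wipi2, Atg4d and Atg5; background 4.8%). Between rescue and knockdown, 0 of 43 passed the fold threshold (background 3%) and 0 passed the adjusted p (background 0%, as no gene at all passed). At the unadjusted P there were 5 members higher in rescue liver (Atg14, Wipi2, Atg9a, Atg5 and Nbr1; background 9.32%) and 0 lower (background 1.4%). Between rescue and control, 0 of 43 passed the fold threshold (background 7.49%) and 0 passed the adjusted p (background 2.15%). There the unadjusted P gave 6 members higher (Atg101, Atg14, Uvrag, Atg7, Nbr1 and Optn; background 24.2%) and 0 lower (background 1.09%). These comparisons share samples, so their lists are not independent of each other. Without knockdown mouse 1, 5 members were higher and 3 lower at the unadjusted P between knockdown and control, and without control mouse 2 there were 3 and 3, with 0 at the adjusted p both times.

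A count of 0 does not show that the genes were equal, but the intervals of most were narrow. The whole 95% interval of the log2 fold change lay within 0.5 of zero for 36 of the 43 members between knockdown and control (83.7%, against 49.7% of all tested genes), for 38 between rescue and knockdown (88.4% against 55%) and for 35 between rescue and control (81.4% against 44.8%). Beside these shares stand the higher level and the smaller spread of the members given above, and their part in the difference was not tested. The farthest limits of any interval were -0.61 for Atg5 between knockdown and control and 0.70 for Atg10 between rescue and knockdown.

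The direction of the small differences depended on how the libraries were scaled. As deposited, the median difference over all 16378 genes was not at zero but, on the log2 scale, at 0.087 between knockdown and control, 0.093 between rescue and knockdown and 0.17 between rescue and control. The members' medians were 0.010, 0.098 and 0.13. Between knockdown and control 23 of 43 members had a log2 fold change above 0 (53.5%, against 65.5% of all tested genes), between rescue and knockdown 32 had (74.4% against 70.9%), and between rescue and control 35 had (81.4% against 81.9%). Relative to the median of all genes, 13, 23 and 14 members lay above. Scaling each library by its median ratio to the gene-wise geometric mean gave 13 above 0 and 30 below between knockdown and control, 23 and 20 between rescue and knockdown, and 10 and 33 between rescue and control. Under that scaling the unadjusted P gave 0 members higher and 5 lower in the first of these comparisons (Pik3r4, Wipi2, Atg4d, Atg5 and Gabarapl2). In the next 1 was higher (Atg5) and 2 lower (Ulk1 and Tfeb). In the last 0 were higher and 7 lower (Wipi2, Atg4c, Atg4d, Atg5, Gabarapl2, Sqstm1 and Ctsl). The share of all tested genes at that P was not counted under this scaling, so these counts have no background beside them. Quantile normalization split the members into 14 above 0 and 29 below, 24 and 19, and 16 and 27, and rescaling without the 20 highest genes into 16 and 27, 25 and 18, and 24 and 19.

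**Figure D2:**
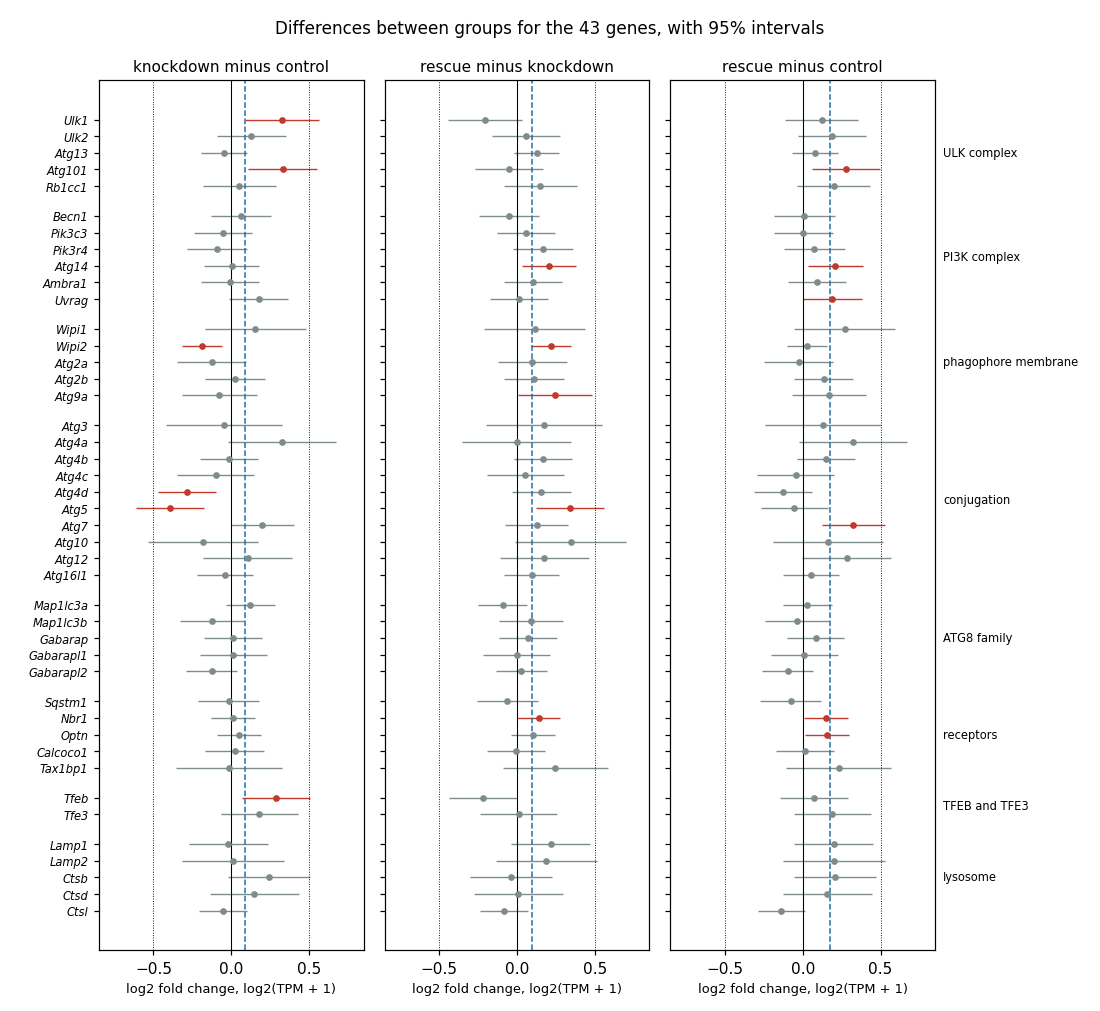
Log2 fold change on the log2(TPM + 1) scale of each of the 43 genes in the 3 comparisons, with 95% intervals from limma (4 mice per group); red marks an unadjusted P under 0.05, dotted lines the fold threshold of 0.5 and the dashed line the median of all tested genes. All points lie within the dotted lines. Above the dashed line lie 13 of the 43 between knockdown and control, 23 between rescue and knockdown and 14 between rescue and control. Atg5 lies farthest below zero between knockdown and control.

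Because TFEB and CREB recognise short DNA motifs, the promoters of the genes were searched for them on both strands, in windows from 250 bases before to 50 after a RefSeq transcription start (GRCm38.p6). RefSeq windows were matched for 36 of the 43 members (43 windows), and 33 of these lie at a start within 300 bases of the beginning of the gene record. The motifs were the E-box CACGTG, the centre TCACGTGA of the CLEAR element bound by TFEB, the full cyclic AMP response element (CRE) TGACGTCA, and the short CRE TGACG. Each E-box count includes the CLEAR centres and each short CRE count includes the full ones, since the longer motifs contain the shorter. An E-box was present in the windows of 7 members (Atg14, Atg3, Atg5, Atg7, Lamp1, Ctsd and Ctsl), that is in 16.3% of the members' windows against 7.15% of all 32851 windows. The window of Atg7 belongs to a start 27969 bases inside the gene. The CLEAR centre was present for 2 members, Atg3 and Ctsd (4.65% against 0.974% of windows). The short CRE was present for 13 members (32.6% against 20.8%), and the full CRE for Atg5 (2.33% against 1.79%). These are matches of letters, given as a description, and no binding was measured.

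The stretches from 150 bases before to 30 after the start are printed for 4 genes. Atg5 is shown for the largest difference between knockdown and control, Wipi2 because all its knockdown values lay below those of both other groups, and Lamp1 and Ctsd because they hold the most E-boxes and a CLEAR centre. They were chosen after the matches were seen. Sequences read 5′ to 3′ on the gene's strand, with every match of the 4 motifs in capitals.
Atg5, chr10:44268189-44268368, plus strand: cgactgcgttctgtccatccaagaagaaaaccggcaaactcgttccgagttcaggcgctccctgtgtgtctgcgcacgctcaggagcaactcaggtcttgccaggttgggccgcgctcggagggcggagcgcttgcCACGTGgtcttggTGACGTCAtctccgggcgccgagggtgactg
Wipi2, chr5:142629434-142629613, plus strand: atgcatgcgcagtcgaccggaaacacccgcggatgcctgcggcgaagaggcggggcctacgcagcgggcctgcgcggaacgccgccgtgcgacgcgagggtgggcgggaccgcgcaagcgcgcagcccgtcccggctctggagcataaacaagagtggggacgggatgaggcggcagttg
Lamp1, chr8:13159011-13159190, plus strand: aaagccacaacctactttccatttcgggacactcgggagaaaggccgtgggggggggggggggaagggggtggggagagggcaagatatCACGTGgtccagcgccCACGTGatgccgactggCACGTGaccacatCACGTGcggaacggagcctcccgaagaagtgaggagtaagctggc
Ctsd, chr7:142387798-142387977, minus strand: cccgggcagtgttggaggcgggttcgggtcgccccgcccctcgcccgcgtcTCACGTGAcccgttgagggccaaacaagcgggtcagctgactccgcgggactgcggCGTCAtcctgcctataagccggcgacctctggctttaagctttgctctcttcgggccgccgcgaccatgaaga
In Atg5 the E-box begins 14 bases before the start and the full CRE begins 1 base before it. Lamp1 holds 4 E-boxes, the outermost beginning 61 bases before the start, and its window coincides with the beginning of the gene. In Ctsd the CLEAR centre begins 99 bases before the start and the short CRE 43 bases before it, on the opposite strand. Wipi2 holds no match, which says only that these letters are not in this window.

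**Figure D3:**
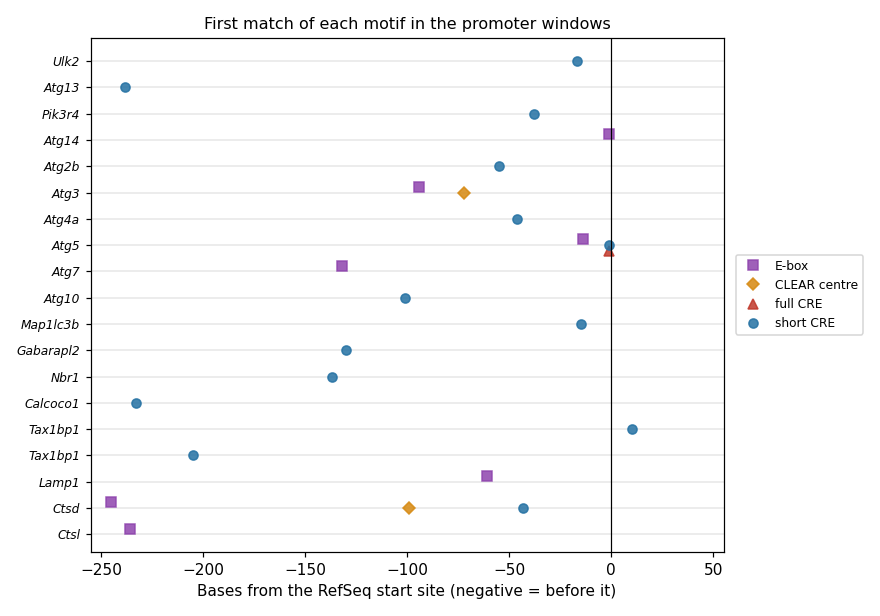
Position of the first match of each motif (E-box, CLEAR centre, full CRE, short CRE), in bases from the RefSeq start site with negative values before it, for each member window that holds a match (both windows of Tax1bp1 are drawn). Atg5 is the window where a full CRE and an E-box lie together at the start, and the short CRE is the motif found for the most members.

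In the ULK complex, whose kinases and scaffolds start autophagy, 4 of 5 genes had a log2 fold change above 0 between knockdown and control, as deposited (65.5% of all tested genes had), and 2 had an unadjusted P under 0.05 (20.2% of all tested genes had). With 5 genes these counts say nothing particular to the complex. Ulk1 (chr5:110784489-110810120), the kinase itself, stood at 69.0, 88.4, 71.5 and 69.1 TPM in the 4 control mice, at 97.8, 88.9, 81.0 and 107 TPM in the knockdown mice and at 88.0, 82.1, 83.1 and 70.5 TPM in the rescue mice. Control mouse 2 lay above 1 knockdown mouse, and the other 3 controls lay below all 4 knockdown mice. The log2 fold change of Ulk1 was 0.33 (95% interval 0.09 to 0.56, adjusted p = 0.115) between knockdown and control and -0.21 (-0.44 to 0.03, adjusted p = 0.517) between rescue and knockdown. These became 0.22 (adjusted p = 0.379) and -0.30 (adjusted p = 0.555) after scaling by the median of ratios.

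Atg101 (chr15:101284301-101290947), which stabilises Atg13 in the complex, stood at 28.9, 26.6, 27.5 and 24.3 TPM in control mice, at 42.3, 32.2, 32.2 and 30.2 TPM in knockdown mice and at 31.5, 33.1, 34.6 and 31.6 TPM in rescue mice. All 4 knockdown mice and all 4 rescue mice lay above all 4 controls, and knockdown mouse 1 lay far above the other 3. Its log2 fold change was 0.33 (0.11 to 0.55, adjusted p = 0.0911) between knockdown and control and 0.28 (0.06 to 0.50, adjusted p = 0.125) between rescue and control. Without knockdown mouse 1 the former was 0.23 (adjusted p = 0.115), and the adjusted p of the latter, whose fold change does not use that mouse, was 0.0459. After scaling by the median of ratios the difference between knockdown and control was 0.23 (adjusted p = 0.344). Between rescue and control it was then 0.08 (adjusted p = 0.823), and over 22 alternatives the adjusted p of this last difference ranged from 0.0127 to 0.823.

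The other 3 genes of the complex were the second kinase Ulk2, the scaffold Rb1cc1 (FIP200) and Atg13. Their log2 fold changes between knockdown and control were 0.13, 0.05 and -0.05, with adjusted p between 0.514 and 0.842. All 4 rescue mice lay above all 4 controls for Ulk2 (59.0 to 66.8 against 52.8 to 57.8 TPM) and for Rb1cc1 (23.5 to 27.0 against 19.2 to 23.3 TPM), as was so for 21.4% of all tested genes. After scaling by the median of ratios these log2 fold changes were -0.01 for Ulk2 and 0.0060 for Rb1cc1. Summed over the 5 genes, the level was 217 to 243 TPM in control mice, 236 to 285 TPM in knockdown mice and 245 to 265 TPM in rescue mice, so that rescue lay above control without overlap.

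As deposited, the lipid kinase complex showed no member with an unadjusted P under 0.05 between knockdown and control, against 20.2% of all tested genes. Its 6 log2 fold changes lay between -0.09 and 0.18. Uvrag (chr7:98886742-99141167), a Beclin 1 partner active in endosome and autophagosome maturation, had the largest difference. It stood at 22.9, 21.0, 20.8 and 22.5 TPM in control mice, at 22.1, 27.7, 22.3 and 27.5 TPM in knockdown mice and at 24.6, 24.9, 25.6 and 24.9 TPM in rescue mice. The knockdown mice split, with 2 near the controls and 2 above every rescue mouse. The log2 fold change of Uvrag between knockdown and control was 0.18 (-0.01 to 0.37, adjusted p = 0.278). Between rescue and control it was 0.19 (adjusted p = 0.196).

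Atg14, which directs the kinase to the site where autophagosomes form, stood at 21.2 to 23.1 TPM in control mice, 20.2 to 24.6 TPM in knockdown mice and 24.6 to 27.5 TPM in rescue mice. Rescue lay above control in all mice, with a log2 fold change of 0.21 (0.03 to 0.38, adjusted p = 0.143), which became 0.01 (adjusted p = 0.961) after scaling by the median of ratios. Becn1, the Beclin 1 gene and central subunit, was at 29.2 ± 3.01, 30.5 ± 2.96 and 29.4 ± 0.95 TPM (SD, n = 4 each) in control, knockdown and rescue liver, with overlapping groups. The catalytic subunit Pik3c3 (VPS34) was at 17.5 ± 1.42, 16.8 ± 1.40 and 17.5 ± 0.82 TPM (SD, n = 4 each). Log2 fold changes between knockdown and control were -0.09 for the regulatory subunit Pik3r4 and -0.01 for Ambra1, a Beclin 1 regulator.

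Among the genes of the growing membrane, Wipi2 had the cleanest separation. Wipi2 (chr5:142629533-142669672), which binds the lipid made by the kinase complex and recruits Atg16l1, stood at 34.2, 34.2, 35.8 and 37.0 TPM in control mice, at 30.1, 31.0, 31.0 and 31.1 TPM in knockdown mice and at 35.4, 36.5, 35.6 and 36.3 TPM in rescue mice. All 4 knockdown mice lay below all 4 controls and all 4 rescue mice, and control and rescue overlapped. On the log2 scale the difference was -0.19 (-0.32 to -0.06, adjusted p = 0.0971) between knockdown and control and 0.22 (0.09 to 0.34, adjusted p = 0.318) between rescue and knockdown, the latter being the smallest adjusted p of any member in that comparison. Between rescue and control it was 0.03 (-0.10 to 0.15). A 2-sided exact permutation test gave 0.0286 for each of the first 2 comparisons, the smallest value that 4 mice against 4 allow. Groups of this size without overlap always give that value, so the test adds nothing to the separation itself. Of all tested genes, 8.99% were separated in either direction between knockdown and control, and 6.38% between rescue and knockdown.

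The other members of that group were Wipi1, Atg2a and Atg2b, which transfer or bind lipid, and Atg9a, a membrane protein of the vesicles that seed the structure. Their log2 fold changes between knockdown and control lay between -0.12 (Atg2a) and 0.15 (Wipi1). Wipi1 varied widely within control liver, from 14.5 to 24.1 TPM. In rescue against knockdown liver 70.9% of all tested genes had a log2 fold change above 0, with a median of 0.093. All 5 genes of the group had, from 0.10 to 0.24, with Atg9a at 0.24 (0.0048 to 0.48, adjusted p = 0.46). After scaling by the median of ratios these 5 values were between 0.0017 and 0.15.

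The conjugation enzymes held the largest difference in the whole set. Atg5 (chr10:44268322-44364299), which is joined to Atg12 to form the enzyme that attaches ATG8 proteins to lipid, stood at 57.6, 55.3, 62.6 and 62.1 TPM in control mice, at 38.6, 45.5, 55.8 and 41.6 TPM in knockdown mice and at 58.8, 55.3, 58.0 and 56.5 TPM in rescue mice. Knockdown mice 1, 2 and 4 lay below every mouse of the other groups, whereas knockdown mouse 3 lay among them. The log2 fold change was -0.39 (SE 0.10, 95% interval -0.61 to -0.18) between knockdown and control, with an adjusted p of 0.053 in limma. Between rescue and knockdown it was 0.34 (0.12 to 0.56, adjusted p = 0.36), and between rescue and control -0.05 (-0.27 to 0.16, adjusted p = 0.757). The exact permutation test, 2-sided, gave 0.0571 for knockdown against control and also for rescue against knockdown.

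For Atg5 the side of the threshold depended on the settings. Over 22 alternatives its log2 fold change between knockdown and control lay between -0.49 and -0.32, always below zero, and its adjusted p between 0.0078 and 0.172, with 6 of the 22 under 0.05. The lowest value came without knockdown mouse 3 (log2 fold change -0.49). With libraries scaled by the median of ratios the log2 fold change was -0.49 with an adjusted p of 0.0271, and Wipi2 then also passed (-0.29, adjusted p = 0.0463, the lowest of a range that reached 0.293). These 2 genes also passed with quantile normalization.

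**Figure D4:**
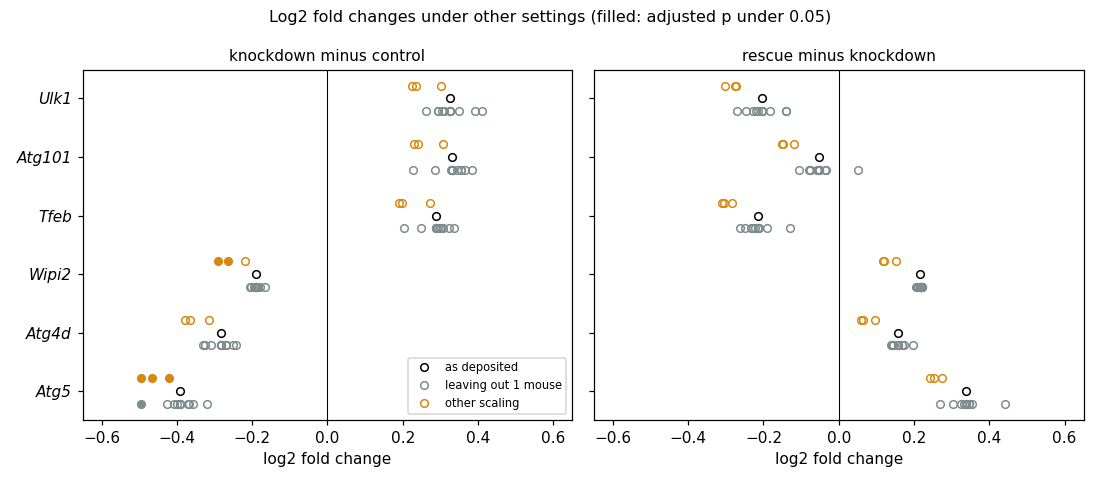
Log2 fold changes of 6 members under the values as deposited, under 3 other scalings and with each of the 12 mice left out in turn, for knockdown minus control and rescue minus knockdown; filled symbols have an adjusted p under 0.05. Signs were the same in all of these settings between knockdown and control, and filled symbols appear for Wipi2 and Atg5 there.

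Atg4d (chr9:21265205-21274837), one of the proteases that trim ATG8 proteins, stood at 11.9, 12.4, 14.2 and 14.5 TPM in control mice, at 10.3, 10.4, 11.7 and 10.3 TPM in knockdown mice and at 11.7, 11.5, 12.5 and 12.3 TPM in rescue mice. All 4 knockdown mice lay below all 4 controls, though knockdown mouse 3 came close to the lowest control. Atg4d had a log2 fold change of -0.28 (-0.47 to -0.10, adjusted p = 0.0905) between knockdown and control and 0.16 (adjusted p = 0.527) between rescue and knockdown. Atg4c had the same order of means with smaller differences (15.5, 14.5 and 15.1 TPM in control, knockdown and rescue liver), and Atg4a and Atg4b had another order. The log2 fold changes of Atg4a, Atg4b and Atg4c between knockdown and control were 0.33, -0.02 and -0.10, and the control values of Atg4a ranged from 6.70 to 13.1 TPM.

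Atg7 (chr6:114643127-114860604), the enzyme that activates both Atg12 and the ATG8 proteins, stood at 30.9, 23.8, 24.5 and 27.6 TPM in control mice, at 29.5, 34.4, 27.6 and 31.5 TPM in knockdown mice and at 34.6, 33.6, 33.4 and 32.7 TPM in rescue mice. All 4 rescue mice lay above all 4 controls, and the knockdown mice overlapped both. Differences in Atg7 on the log2 scale were 0.20 (-0.0027 to 0.40, adjusted p = 0.254) between knockdown and control and 0.33 (0.12 to 0.53, adjusted p = 0.0753) between rescue and control, the smallest adjusted p of any member in that comparison. Without control mouse 1 it was 0.40 with an adjusted p of 0.0301, and after scaling by the median of ratios it was 0.13 with an adjusted p of 0.377. Over the 22 alternatives this adjusted p of Atg7 ranged from 0.0112 to 0.377.

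The remaining conjugation genes were Atg3, Atg10, Atg12 and Atg16l1. Atg3, which hands ATG8 proteins on to the lipid, spread the most of any member in knockdown liver, from 25.0 TPM in mouse 1 to 50.5 TPM in mouse 2. Log2 fold changes between knockdown and control were -0.05 for Atg3, -0.18 for Atg10, 0.11 for Atg12 and -0.04 for Atg16l1, with adjusted p between 0.582 and 0.916. From knockdown to rescue, 9 of the 10 conjugation genes had a log2 fold change above 0, as had 70.9% of all tested genes. Their median was 0.16, against 0.093 over all tested genes. After scaling by the median of ratios the 10 values ran from -0.09 (Atg4a) to 0.27 (Atg10).

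The ATG8 proteins are the ubiquitin-like tags of the autophagic membrane. As deposited, none of their 5 genes had an unadjusted P under 0.05 in any comparison. Of all tested genes 20.2% had between knockdown and control, 10.7% between rescue and knockdown and 25.3% between rescue and control. With 5 genes this count says nothing particular to the family. Gabarapl2 (chr8:111940703-111952915) had the largest difference between knockdown and control. It stood at 44.7, 41.4, 39.3 and 40.7 TPM in control mice, at 37.5, 33.8, 41.9 and 39.0 TPM in knockdown mice and at 38.4, 38.7, 37.8 and 40.0 TPM in rescue mice, with overlap throughout. Its log2 fold change was -0.13 (-0.29 to 0.04, adjusted p = 0.382). The LC3 genes Map1lc3a and Map1lc3b had log2 fold changes of 0.12 and -0.12 between knockdown and control. The abundant Gabarapl1 was at 335 ± 43.4, 336 ± 24.9 and 336 ± 25.1 TPM (SD, n = 4 each) in control, knockdown and rescue liver, and Gabarap at 232 ± 6.58, 235 ± 28.2 and 246 ± 5.83 TPM.

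Sqstm1 (p62), the receptor that is itself degraded by autophagy, was at 340 ± 34.3, 336 ± 31.8 and 321 ± 12.1 TPM (SD, n = 4 each) in control, knockdown and rescue liver. Its log2 fold change between knockdown and control was -0.02 (-0.21 to 0.18). Optn (chr2:5020521-5064399), a receptor for mitochondria and bacteria, had the largest knockdown difference of the receptors at only 0.05 (-0.09 to 0.19, adjusted p = 0.729). It stood at 92.6, 90.1, 94.4 and 95.7 TPM in control mice, at 90.0, 105, 95.8 and 95.8 TPM in knockdown mice and at 102, 110, 101 and 103 TPM in rescue mice. The rescue mice all lay above the controls, with a log2 fold change of 0.15 (0.01 to 0.29, adjusted p = 0.165), whose sign turned under median-of-ratios scaling (-0.046).

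Nbr1, a second ubiquitin-binding receptor, likewise stood above the controls in every rescue mouse, with 159.5 to 164 TPM against 142 to 152 TPM, and its log2 fold change was 0.15 (0.01 to 0.29, adjusted p = 0.171). After scaling by the median of ratios that value was -0.05. Calcoco1 and Tax1bp1 had log2 fold changes of 0.02 and -0.02 between knockdown and control. Tax1bp1 ranged from 36.6 TPM in knockdown mouse 1 to 70.2 TPM in knockdown mouse 2.

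Tfeb (chr17:47737037-47792416), the activator of autophagy and lysosome genes, stood at 8.21, 8.08, 7.13 and 8.05 TPM in control mice, at 11.9, 8.81, 9.09 and 9.68 TPM in knockdown mice and at 8.26, 7.83, 8.55 and 8.65 TPM in rescue mice. All 4 knockdown mice lay above all mice of both other groups. Tfeb had a log2 fold change of 0.29 (0.07 to 0.51, adjusted p = 0.13) between knockdown and control and -0.22 (-0.43 to 0.0032, adjusted p = 0.467) between rescue and knockdown. Without knockdown mouse 1, the highest of the 12, these values were 0.20 and -0.13. With all 12 mice, scaling by the median of ratios gave 0.20 (adjusted p = 0.404) and -0.30 (adjusted p = 0.532). The related factor Tfe3 was at 10.9 ± 1.10, 12.6 ± 1.94 and 12.6 ± 1.08 TPM (SD, n = 4 each), with a log2 fold change of 0.18 (-0.07 to 0.43, adjusted p = 0.412) between knockdown and control.

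The 5 lysosomal genes were the most abundant group, with a summed level of 1348 to 1629 TPM in control mice, 1329 to 1824 TPM in knockdown mice and 1667 to 1733 TPM in rescue mice. The rescue sums lay above all control sums. After scaling by the median of ratios the log2 fold changes of the 5 genes between rescue and control ran from -0.34 (Ctsl) to 0.0041 (Ctsb). Ctsb (chr14:63122462-63145923), a cysteine protease, had the largest knockdown difference. It stood at 357, 250.3, 282 and 329 TPM in control mice, at 319, 427, 331 and 363 TPM in knockdown mice and at 348, 382, 342 and 325 TPM in rescue mice, with overlapping groups. Its log2 fold change was 0.24 (-0.02 to 0.51, adjusted p = 0.282), and without control mouse 2 it was 0.15.

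Lamp1, whose promoter with 4 E-boxes is printed above, stood at 614, 551, 647 and 668 TPM in control mice, at 482, 719, 583 and 685 TPM in knockdown mice and at 708, 703, 701 and 727 TPM in rescue mice. All rescue mice lay above all controls, while the knockdown mice spread across the whole range. The log2 fold change was -0.02 (-0.27 to 0.23) between knockdown and control and 0.20 (-0.06 to 0.45, adjusted p = 0.301) between rescue and control, and the latter became -0.0034 after median-of-ratios scaling. Lamp2, the membrane protein needed for fusion and for chaperone-mediated autophagy, had log2 fold changes of 0.01, 0.19 and 0.20 in the 3 comparisons. Those of the aspartic protease Ctsd were 0.15, 0.01 and 0.16, and those of Ctsl -0.05, -0.08 and -0.14.

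**Figure D5:**
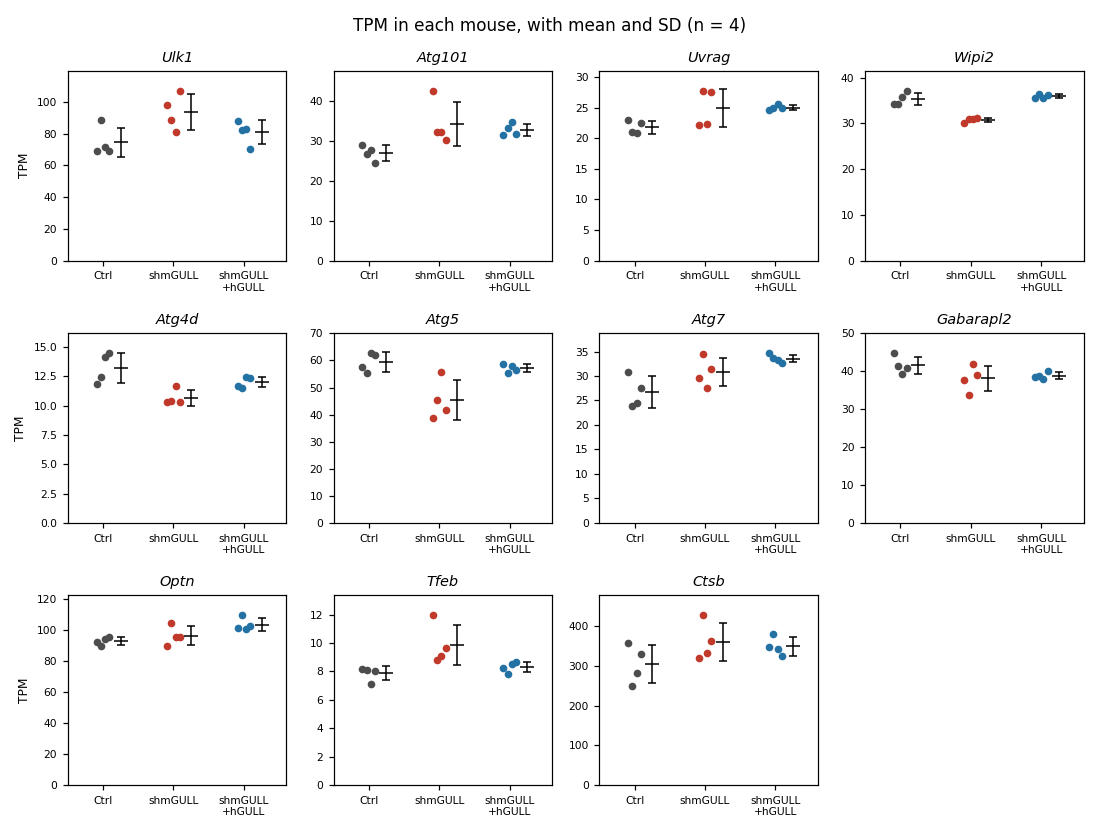
TPM in each mouse of the 11 members described with all their values, on axes that start at 0, with the mean and SD of each group beside the points (n = 4). Wipi2 and Atg4d lie lower and Atg101 and Tfeb higher in all 4 Ad-shmGULL mice than in all 4 Ad-Ctrl mice, and for Atg5 this holds for 3 of the 4.

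Counted over the whole set, the groups did not overlap for 4 members between knockdown and control. Atg101 and Tfeb lay above (4.65% of members, against 6.93% of all tested genes) and Wipi2 and Atg4d below (4.65% against 2.06%). Between rescue and knockdown Atg13 and Wipi2 lay above (4.65% against 5.4%) and Tfeb below (2.33% against 0.983%). Between rescue and control 10 members lay above (23.3% against 21.4%) and 0 below (against 0.855%). The 10 were Ulk2, Atg101, Rb1cc1, Atg14, Uvrag, Atg7, Gabarap, Nbr1, Optn and Lamp1, a share close to that of all genes. After scaling by the median of ratios 4 of the 10 log2 fold changes were above 0 and 6 below, from -0.12 to 0.13. The sum over all 43 members was 3476 to 3760 TPM in control mice, 3360 to 4053 TPM in knockdown mice and 3888 to 3960 TPM in rescue mice. In the same libraries the hepatocyte sum was 77135 to 112836, 83103 to 96593 and 70755 to 84665 TPM. Rescaled without the 20 highest genes, the members' median log2 fold change between rescue and control was 0.037, against 0.13 as deposited. Over all tested genes it was 0.095, against 0.17. The part of hepatocyte transcripts as such in the TPM of the members was not tested.

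A further 178 genes on 7 lists of the same pathway were also examined, of which 175 were tested. Between knockdown and control 8 of them passed the adjusted p of 0.05 (4.57%, against 3.23% of the whole table tested). Higher in knockdown liver were the lysosomal enzymes Arsb, an arylsulfatase, and Smpd1, the acid sphingomyelinase, together with Igf2r, the receptor that sorts such enzymes, Atp6v0a1, a subunit of the proton pump, and Fkbp8, a mitophagy receptor. Lower were Trp53inp1, an LC3-binding stress protein, Lamtor5, a subunit of the lysosomal Ragulator complex, and Pnpla2 (Atgl), the triglyceride lipase of lipid droplets. The median log2 fold change of the 175 genes was 0.10, against 0.087 over all tested genes. The fold threshold was passed by 2.86% of the 175, against 7.65% of all tested genes.

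Pnpla2 was at 152 ± 13.3 TPM in control liver, 98.6 ± 14.4 TPM in knockdown liver and 135 ± 18 TPM in rescue liver (SD, n = 4 each). All 4 knockdown mice lay below all mice of both other groups, and the log2 fold change was -0.63 (adjusted p = 0.0186) between knockdown and control and 0.46 (adjusted p = 0.318) between rescue and knockdown. Lamtor5 fell from 40.9 ± 1.40 to 24.0 ± 5.14 TPM in knockdown liver (log2 fold change -0.77, adjusted p = 0.0119) and was at 35.4 ± 2.65 TPM in rescue liver. Trp53inp1 fell from 125 ± 11.5 to 87.2 ± 10.9 TPM (-0.51, adjusted p = 0.0231) and was at 138 ± 13.1 TPM in rescue liver (SD, n = 4 each). Trp53inp1 and Lamtor5 were also the 2 genes of these lists past the fold threshold between rescue and knockdown, at 0.66 and 0.57 with adjusted p of 0.117 and 0.309, that is 1.14% of the 175 genes against 3% of all tested genes. Over 22 alternatives the call between knockdown and control held in 19 for Pnpla2, 21 for Lamtor5 and 18 for Trp53inp1. Leaving out control mouse 3 or 4 ended it for Pnpla2 (adjusted p = 0.0524 and 0.056) and for Trp53inp1 (0.074 and 0.0595), and leaving out knockdown mouse 2 ended it for Trp53inp1 (0.0616).

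Arsb rose from 22.1 ± 1.91 to 32.4 ± 2.26 TPM in knockdown liver (log2 fold change 0.53, adjusted p = 0.015) and was at 32.4 ± 3.69 TPM in rescue liver. Igf2r rose from 43.1 ± 3.14 to 59.2 ± 6.55 TPM (0.45, adjusted p = 0.0231) and was at 59.4 ± 3.29 TPM in rescue liver (SD, n = 4 each). Both also passed between rescue and control (adjusted p = 0.0381 and 0.039), as did Mlst8, a subunit of the mTOR complexes (0.62, adjusted p = 0.0431), and Tsc2, an inhibitor of mTORC1 (0.30, adjusted p = 0.0478). These 4 calls between rescue and control (2.29% of the 175 genes, against 2.15% of all tested genes) were lost after scaling by the median of ratios, where adjusted p lay between 0.11 and 0.438, and each held in 8 of 22 alternatives. They were lost without any 1 of control mice 2, 3 and 4, of knockdown mouse 4 and of the 4 rescue mice, with adjusted p between 0.0532 and 0.161. Between knockdown and control the call held in 21 alternatives for Arsb, 16 for Igf2r, 11 for Atp6v0a1, 10 for Smpd1 and 5 for Fkbp8. Leaving out any 1 of control mice 2, 3 and 4 and knockdown mice 2 and 4 ended it for Igf2r, Smpd1, Atp6v0a1 and Fkbp8 (adjusted p between 0.0543 and 0.128). Without knockdown mouse 1 it ended for Smpd1 (0.058) and Fkbp8 (0.0766), without rescue mouse 2 or 4 for Smpd1, Atp6v0a1 and Fkbp8, and without rescue mouse 1 or 3 for Fkbp8. Between rescue and knockdown 0 of the 175 passed the adjusted p in limma, with 19 higher and 1 lower at an unadjusted P under 0.05 (10.9% and 0.57%, against 9.32% and 1.4% of all tested genes). Lipa, the lysosomal acid lipase, passed the fold threshold between knockdown and control (0.58, adjusted p = 0.0728) and between rescue and control (0.64, adjusted p = 0.0559). Without knockdown mouse 1 its adjusted p was 0.0404 and 0.0365. In the latter comparison Sesn2, a stress-induced inhibitor of mTORC1, stood at 0.51 (adjusted p = 0.0641) and Retreg1, a receptor for the endoplasmic reticulum, at -0.51 (adjusted p = 0.0994). Past the fold threshold were 2.86% of the 175 genes between knockdown and control, against 7.65% of all tested genes, and 2.86% between rescue and control, against 7.49%.

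By list, the calls between knockdown and control at an adjusted p under 0.05 were 1 of 32 other autophagy genes, 1 of 14 selective autophagy receptors, 1 of 39 upstream kinases and regulators, 2 of 37 lysosomal hydrolases, 1 of 26 lysosomal membrane and transport genes, 1 of 16 subunits of the vacuolar ATPase and 1 of 11 genes of lipophagy and lipolysis. Of all tested genes 3.23% passed, and 1 or 2 calls in lists of this size say nothing particular to any list. Crtc2 itself, on the list of upstream regulators, was at 26.0 ± 2.95, 27.5 ± 1.87 and 29.0 ± 2.10 TPM (SD, n = 4 each) in control, knockdown and rescue liver, with overlapping groups. Its log2 fold change was 0.08 between knockdown and control (adjusted p = 0.67).

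Macrophages and endothelial cells also hold many lysosomes, and in bulk liver fewer cells of a type and less RNA per cell cannot be told apart. The 11 markers of Kupffer cells and macrophages (Clec4f, Adgre1 and others) summed to 802 to 1352 TPM in control mice, 794 to 1343 TPM in knockdown mice and 966 to 1202 TPM in rescue mice, overlapping throughout. The 6 endothelial markers summed to 108 to 187, 172 to 239 and 174 to 209 TPM. All 6 had a log2 fold change above 0 between knockdown and control (65.5% of all tested genes had). Of these, Stab2 had an adjusted p of 0.0476 in limma (3.23% of all tested genes were under 0.05). All 6 were also above 0 between rescue and control, as were 81.9% of all tested genes. Between knockdown and control 5 of 6 stellate cell and 3 of 3 B cell markers were above 0. So were 3 of 8 hepatocyte, 5 of 11 Kupffer cell and macrophage, 3 of 5 monocyte and neutrophil, 4 of 9 T and NK cell and 1 of 3 cholangiocyte markers. Of the 51 tested genes on the 8 marker lists, Stab2 was the only one with an adjusted p under 0.05 in any of the 3 comparisons, and no list gene was at 0 in every mouse. The part of these cells in the lysosomal values was not tested.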

How the data were processed

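Liver RNA-Seq of 12 mice (3 groups of 4) was analysed by group label. Per the labels and the methods, the authors trimmed reads with fastp 0.23.2, checked them with FastQC 0.11.8, aligned them with HISAT2 2.2.1.0 to GRCm38.p6, counted them with featureCounts (Subread 2.0) on GENCODE genes and deposited TPM. The strand setting of the counting is not given in the sources used here, and depth is unknown. All columns were mapped to samples.

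Values were analysed as log2(TPM + 1) with limma 3.58.1 in R 4.3.3, for genes with a mean TPM of at least 1, in a model of the 3 groups without covariates, with empirical Bayes variances, a mean-variance trend, two-sided tests and Benjamini-Hochberg adjustment over all 16378 tested genes. The fold threshold, from the study's methods, was a difference of more than 0.5 on the log2 scale at an unadjusted P under 0.05. A log2 fold change on this scale understates changes of low genes, and intervals are at 95%. The labels number the mice but do not say more of their origin, and p-values measure the spread between them. The procedure was tested on simulated data.

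The members and lists were chosen with earlier results of these data known. Named with all values were members past a threshold, members whose groups did not overlap between knockdown and control, the largest knockdown difference of each role, and Atg5, Atg7, Ulk1 and Tfeb; Lamp1 was added after its values were seen. Of the other pathway genes, up to 4 past a threshold per list and Pnpla2 could be named, and Crtc2 was added for its place in the study. Promoter sequences and gene positions came from RefSeq (GRCm38.p6), read with Python 3.11.15; no window was matched for Ctsb, Atg16l1, Map1lc3a, Atg12, Pik3c3, Becn1 and Rb1cc1. As alternatives, each mouse was left out in turn, libraries were rescaled (median of ratios, quantiles, or totals without the 20 highest genes), the filter was dropped or raised to 5 TPM, the pseudocount was 0.1, and the model used only the 2 groups compared, a replicate block, array weights or no trend.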

Additional observations from a re-analysis of the deposited data

Results flagged for a closer look

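In 10 of 129 groups of 4 mice (43 genes in 3 groups), 1 mouse lay so far from the other 3 that its gap, as a share of the group's range, exceeded the 95% limit of Dixon's test. Chance alone gives about 1 in 20 such groups. In control liver these were Ulk1 in mouse 2 (88.4 TPM, others 69.0 to 71.5), Atg4b in mouse 4 (12.3 TPM, lowest of the others 10.9), Sqstm1 in mouse 1 (391.6 TPM, others 318 to 327) and Tfeb in mouse 3 (7.13 TPM, others 8.05 to 8.21). In knockdown liver they were Atg101 in mouse 1 (42.3 TPM, others 30.2 to 32.2), Atg4d in mouse 3 (11.7 TPM, others 10.3 to 10.4) and Calcoco1 in mouse 2 (24.1 TPM, others 28.1 to 28.3). In rescue liver they were Rb1cc1 in mouse 1 (27.0 TPM, others 23.5 to 24.0), Pik3r4 in mouse 2 (13.6 TPM, others 14.5 to 14.6) and Nbr1 in mouse 2 (159.5 TPM, others 164). The mice differ from gene to gene, and the causes were not tested.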

How the results depend on the processing

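In all 22 alternatives 0 members passed the fold threshold in any comparison. At an adjusted p under 0.05 the count between knockdown and control became 1 with a mean TPM of at least 5, 1 after rescaling without the 20 highest genes, 1 with array weights (Atg5 each time), and 2 with median-of-ratios scaling and 2 with quantile normalization (Wipi2 and Atg5). Between rescue and control it became 2 with only the 2 groups compared (Atg101 and Atg7) and 3 with array weights (Atg101, Atg14 and Atg7). Leaving out each mouse gave 0 to 1 between knockdown and control (1 without knockdown mouse 3), 0 to 1 between rescue and control (1 without control mouse 1, 1 without knockdown mouse 1) and 0 between rescue and knockdown. The cause was not tested. Signs turned, all without a call, as follows. Between knockdown and control Optn became -0.054 with median-of-ratios scaling and -0.039 with quantile normalization. Between rescue and knockdown, under median-of-ratios scaling, quantile normalization and rescaling without the 20 highest genes, Uvrag became -0.082, -0.085 and -0.053 and Gabarapl2 -0.068, -0.061 and -0.038. With array weights Uvrag became -0.033 and Atg101 0.032. Leaving out each mouse there gave -0.11 to 0.052 for Atg101, -0.039 to 0.064 for Uvrag, -0.026 to 0.074 for Gabarapl2 and -0.094 to 0.047 for Ctsb. Between rescue and control, under median-of-ratios scaling, Ulk1 became -0.079, Uvrag -0.0044, Wipi2 -0.17, Optn -0.046 and Tfeb -0.11. Under quantile normalization Ulk1 became -0.041, Wipi2 -0.15, Optn -0.0061 and Tfeb -0.12. Without the 20 highest genes Wipi2 became -0.066 and Tfeb -0.011, and with array weights Wipi2 became -0.0014. The mice share only a replicate number: 2 of 12 same-numbered pairs correlated above 0.1 in their deviations (range -0.24 to 0.15), 4 of the 12 mice correlated best with their own number, and with that number as a block the counts of members stayed at 0, while calls over all tested genes went from 529 to 418 between knockdown and control and from 352 to 71 between rescue and control. Depth is unknown, so counting error could not be separated from the spread between mice.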
